A study of Mus musculus with 30 samples.

Results

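B cell progenitors were found among the Lin- c-Kit+ (LK) bone marrow cells of 6 mice profiled by 10x single-cell RNA-seq. A cell was counted as a B progenitor when at most 10% of its UMIs (unique molecular identifiers, each standing for 1 captured transcript) came from mitochondrial genes and when Cd79a, Vpreb1, Vpreb3, Igll1 and Ebf1 together reached at least 20 UMIs per 10000 of that cell. This rule found 3579 B progenitors among 24396 kept cells, out of 24693 cells in the table. The 3 Mettl3KO libraries came from Mx1-Cre; Mettl3 fl/fl mice and the 3 WT libraries from Mettl3 fl/fl mice without a Cre in their labels. All 6 mice were sampled 3 weeks after pIpC, a double-stranded RNA mimic that induces interferon. Each library came from a different mouse, and age was not given in the sources used here. Mx1-Cre is driven by an interferon-inducible promoter active well beyond the B lineage, and the presence of Cre and the loss of Mettl3 cannot be told apart in these groups.

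B cells arise in the bone marrow from lymphoid progenitors. The transcription factors TCF3, EBF1 and PAX5 start the B cell programme, interleukin 7 drives the proliferation of the youngest cells, and the RAG1 and RAG2 recombinase joins the gene segments of the immunoglobulin heavy chain, to which the polymerase encoded by Dntt adds bases. A productive heavy chain pairs with the surrogate light chain, made of the products of Vpreb1 or Vpreb2 and Igll1, and signals through CD79A and CD79B as the pre-B cell receptor. METTL3 is the catalytic subunit of the complex that writes N6-methyladenosine into RNA.

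The table held 27933 genes, and the libraries held 28796862 to 44308479 UMIs. The median B progenitor had 5110 UMIs, against 8533 in the other LK cells. The fewest UMIs of any kept cell differed between libraries, from 2228 in WT 3 to 3328 in WT 2 among the other LK cells, so the submitters' own cell calling can set how many of these small cells were kept. WT 3 stood apart from the rest: its other LK cells had a median of 6082 UMIs, and 11 granulocyte genes summed to 100480 UMIs per 1000000 of the summed total (CPM) there, against 15441 to 24292 CPM in the other 5 libraries. In the B progenitors the same 11 genes summed to 3084, 3656 and 2515 CPM in Mettl3KO, against 4437, 7038 and 31327 CPM in WT. Cell barcodes found in more than 1 library numbered 303 of 24389, and 9 of them were B progenitors in both libraries. No doublet caller was run. Instead, 193 B progenitors (5.39%) were marked as mixed cells, and results are given without them where this matters. These held at least 20 UMIs per 10000 of Elane, Prtn3, Ctsg and Mpo summed, or of Car1, Klf1, Hba-a1 and Hbb-bs summed. Mixed cells made up 4.36%, 4.55% and 3.70% of the B progenitors in Mettl3KO, against 8.90%, 14.4% and 11.3% in WT.

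B progenitors were a larger share of the LK cells in Mettl3KO than in WT marrow. They made up 17.3%, 31.4% and 25.5% of the kept cells in the Mettl3KO libraries (734 of 4239, 924 of 2946 and 1242 of 4866 cells), against 7.52%, 3.96% and 4.67% in the WT libraries (337 of 4483, 139 of 3514 and 203 of 4348 cells). The 95% Wilson intervals, which cover counting error only, were 16.2% to 18.5%, 29.7% to 33.1% and 24.3% to 26.8% in Mettl3KO, against 6.78% to 8.33%, 3.36% to 4.65% and 4.08% to 5.34% in WT. The lowest Mettl3KO share was above the highest WT share. The means were 24.7% ± 7.06 in Mettl3KO and 5.38% ± 1.88 in WT (SD, n = 3 each), a ratio of 4.597. The exact two-sided permutation test gave p = 0.1, the smallest value that 3 libraries against 3 allow. Shares are fractions of the sorted and called cells, so more B progenitors and fewer cells of other types cannot be told apart. After each cell was thinned to 3000 UMIs and shallower cells were left out (107 in Mettl3KO and 478 in WT), the means were 24.6% and 4.97%.

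**Figure D1:**
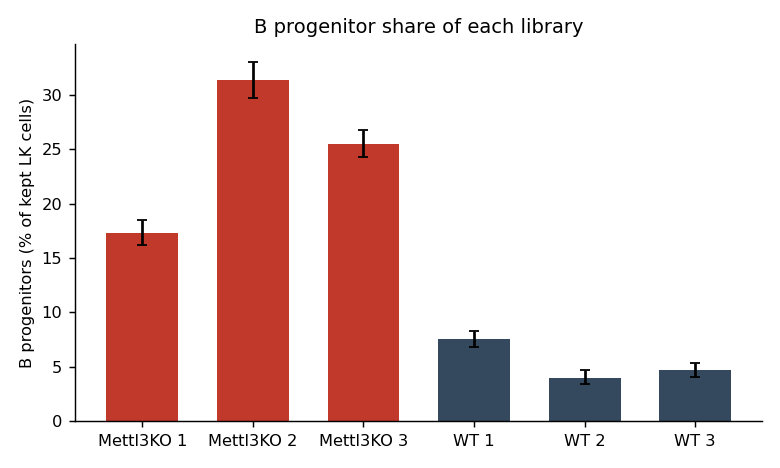
Share of B progenitors among the kept LK cells (y axis, percent) in each library (x axis), with 95% Wilson intervals that cover counting error only. The 3 Mettl3KO bars, at 17.3% to 31.4%, stand above the 3 WT bars, at 3.96% to 7.52%.

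The 5 genes that chose the cells were high in every library, and are described here without a test. Ebf1, the factor that commits cells to the B lineage, had 2242, 2619 and 2406 CPM in Mettl3KO B progenitors, against 2286, 2168 and 2470 CPM in WT B progenitors. Igll1 averaged 1991 ± 172 CPM, Vpreb1 1966 ± 198 CPM, Vpreb3 1939 ± 102 CPM and Cd79a 1205 ± 102 CPM in B progenitors (SD, n = 6 libraries). These levels varied little between libraries. All 5 genes were detected in 3467 B progenitors (96.9%), while 5 cells passed on 1 gene alone. The summed level had a median of 112 UMIs per 10000, and the threshold fell in a sparse range, with 84 cells at 20 to below 25 and 67 cells at 15 to below 20. The cells just inside it differed from the rest: they had a median of 11544 UMIs, 227 CPM of Dntt and 4320 CPM of the neutrophil elastase gene Elane, against 5067 UMIs, 1064 CPM of Dntt and 566 CPM of Elane in the 3495 cells at 25 or more. The cells just outside had 208 CPM of Dntt and 5290 CPM of Elane.

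A few UMIs of these genes were also counted in cells that should lack them. In cells thinned to 3000 UMIs, Cd79a was detected in 94.2% of Mettl3KO and 88.1% of WT B progenitors. In cells outside the rule with at least 100 UMIs per 10000 of Elane, Prtn3, Ctsg and Mpo it was detected in 3.07% in Mettl3KO and 0.641% in WT. The 5 genes summed to 72.4, 127 and 90.4 CPM in the other LK cells of Mettl3KO, against 32.4, 32.9 and 35.0 CPM in those of WT. The 3 Mettl3KO sums were above the 3 WT sums. How free RNA, doublets and cells just under the threshold add to these sums was not tested.

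Vpreb1 and Igll1, which encode the surrogate light chain, lie close together on chromosome 16. Their promoters, 250 bases before to 50 after the start of the gene in RefSeq (GRCm38.p6), are shown because both genes chose the cells and were expressed at near-equal levels. Vpreb1 is at chr16:16869206-16869505 (minus strand) and Igll1 at chr16:16863936-16864235 (minus strand), each printed 5′ to 3′ in the direction of the gene. Capitals mark the E-boxes CAGGTG and CAGCTG, which TCF3 can bind, and CCCNNGGG, the core of the EBF1 motif, searched on both strands.
Vpreb1: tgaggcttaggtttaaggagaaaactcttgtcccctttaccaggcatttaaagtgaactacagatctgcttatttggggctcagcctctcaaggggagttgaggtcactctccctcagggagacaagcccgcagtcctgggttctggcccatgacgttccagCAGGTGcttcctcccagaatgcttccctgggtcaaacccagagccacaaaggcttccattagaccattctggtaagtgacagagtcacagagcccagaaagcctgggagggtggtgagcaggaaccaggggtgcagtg
Igll1: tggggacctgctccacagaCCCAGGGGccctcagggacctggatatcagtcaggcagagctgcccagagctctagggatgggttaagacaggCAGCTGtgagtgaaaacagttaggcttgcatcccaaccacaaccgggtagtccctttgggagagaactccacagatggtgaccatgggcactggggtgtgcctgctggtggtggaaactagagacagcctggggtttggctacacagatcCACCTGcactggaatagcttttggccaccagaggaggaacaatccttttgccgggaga
CAGGTG was found in the promoters of 3 of the 5 rule genes (Cd79a, Vpreb1 and Igll1) and in 20.2% of all 32851 promoters. CCCNNGGG was found in that of Igll1 and in 13.7% of all promoters, CAGCTG in that of Igll1 and in 16.3%, and the longer TCCCNNGGGA in none of the 5 and in 0.904%. A match in these letters is a description and not a binding site.

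Other genes of the early B cell programme were also high in these cells. The cells were chosen by B lineage genes, so their difference from other LK cells is a description of what was selected. With edgeR's quasi-likelihood test, 7926 of 12471 genes tested differed, a background of 63.6%, with 30.4% higher and 33.2% lower in B progenitors, and nothing is read from these counts. All 15 measured members of the pre-B receptor and B cell receptor list were in the higher group. Pax5, which maintains B cell identity, averaged 97.1 ± 6.35 CPM in B progenitors and 0.601 ± 0.341 CPM in other LK cells (SD, n = 6 libraries each). Blnk, the adaptor below the pre-B receptor, averaged 366 ± 30.2 CPM and 4.10 ± 2.44 CPM. Both were higher in B progenitors in 6 of 6 libraries.

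Among the 10 genes with the largest log2 fold change over other LK cells were Lef1 (7.63 ± 0.08, SE), Id3 (7.60 ± 0.09), Pax5, Akap12, Gfra2, Bst1, Bfsp2, Cplx2 and Blnk. LEF1 is a factor of pro-B cell survival and proliferation, ID3 an inhibitor of E proteins such as TCF3, and Bst1 encodes the BP-3 surface antigen of early B cells. Cd79b, the partner of Cd79a, averaged 537 ± 63.0 CPM in B progenitors and 33.7 ± 6.14 CPM in other LK cells. Among the 10 most negative log2 fold changes were those of the globins Hba-a1 (-3.68 ± 0.19), Hba-a2, Hbb-bs and Hbb-bt, of Cldn13, Gata1, Klf1, Sphk1 and Rhd, most of them genes of red cell precursors. The granulocyte and erythroid lists were lower in B progenitors than in other LK cells for 11 of 11 and 12 of 12 genes, against 33.2% of all genes tested.

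Stage genes are given by level. Il7r, the receptor for interleukin 7, averaged 114 ± 11.1 CPM in B progenitors and 2.03 ± 0.620 CPM in other LK cells. Rag1 averaged 32.3 ± 8.58 CPM and 0.628 ± 0.391 CPM, and Rag2 74.6 ± 16.0 CPM and 1.61 ± 0.812 CPM. Dntt, which is switched off after the pro-B stage, averaged 952 ± 175 CPM and 45.6 ± 24.7 CPM. Il2ra, the CD25 gene of pre-B cells, stayed at 0.630, 0.166 and 0.379 CPM in Mettl3KO and at 0 in the 3 WT libraries. Ms4a1, the CD20 gene of later B cells, averaged 4.07 ± 5.41 CPM, and Ighm, Ighd and Igkc were not analysed here. Other genes of the late and mature B cell list were well above 0: Cd37 averaged 212 ± 21.1 CPM, the class II chaperone gene Cd74 181 ± 52.0 CPM and H2-Ab1 142 ± 25.3 CPM in B progenitors. The 13 listed genes in the table summed to 604, 650 and 746 CPM in Mettl3KO B progenitors, against 621, 684 and 564 CPM in WT. In other LK cells the same 13 genes summed to 972, 1476 and 985 CPM in Mettl3KO, against 560, 454 and 607 CPM in WT. These levels therefore do not mark later B cells. Of 11 tested against other LK cells, 4 were in the higher and 5 in the lower group. Of all genes tested, 30.4% were higher and 33.2% lower, and nothing is read from these counts. Kit, the gene of the antigen used in the sort, averaged 21.9 ± 5.90 CPM in B progenitors and 44.3 ± 5.64 CPM in other LK cells, and was lower in B progenitors in 6 of 6 libraries.

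Markers of other cells that the sort could hold differed by list. In thinned cells Elane was detected in 22.04% of Mettl3KO and 42.0% of WT B progenitors, and Mpo in 24.1% and 40.1%. Granule-gene cells are those outside the rule with at least 100 UMIs per 10000 of Elane, Prtn3, Ctsg and Mpo summed. Elane and Mpo were detected in 99.2% to 100% of them, which their choice by these genes largely fixed. The 12 T and NK genes summed to 165, 162 and 165 CPM in Mettl3KO B progenitors, against 237, 338 and 340 CPM in WT. Most of that sum came from Nkg7, at 162 ± 76.3 CPM, and Lck, at 30.3 ± 6.997 CPM, while the T cell receptor genes Cd3d, Cd3e and Cd3g averaged 2.78, 0.401 and 0.669 CPM. Of 11 T and NK genes tested against other LK cells, 4 were in the higher and 3 in the lower group, with a median log2 fold change of 0.83. In that comparison 30.4% of all genes were higher and 33.2% lower, so nothing is read from these counts or the plasma cell counts below. The 7 plasma cell genes summed to 946, 422 and 637 CPM in Mettl3KO B progenitors, against 1176, 3267 and 454 CPM in WT, with 3 of 7 in the higher and 2 in the lower group. Jchain, the joining chain of secreted immunoglobulin, made up most of it, at 993 ± 1051 CPM. The 11 plasmacytoid dendritic cell genes summed to 422, 414 and 483 CPM in Mettl3KO, against 533, 727 and 603 CPM in WT, and their defining gene Siglech averaged 0.375 ± 0.523 CPM. The part of such cells in the results was not tested.

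**Figure D2:**
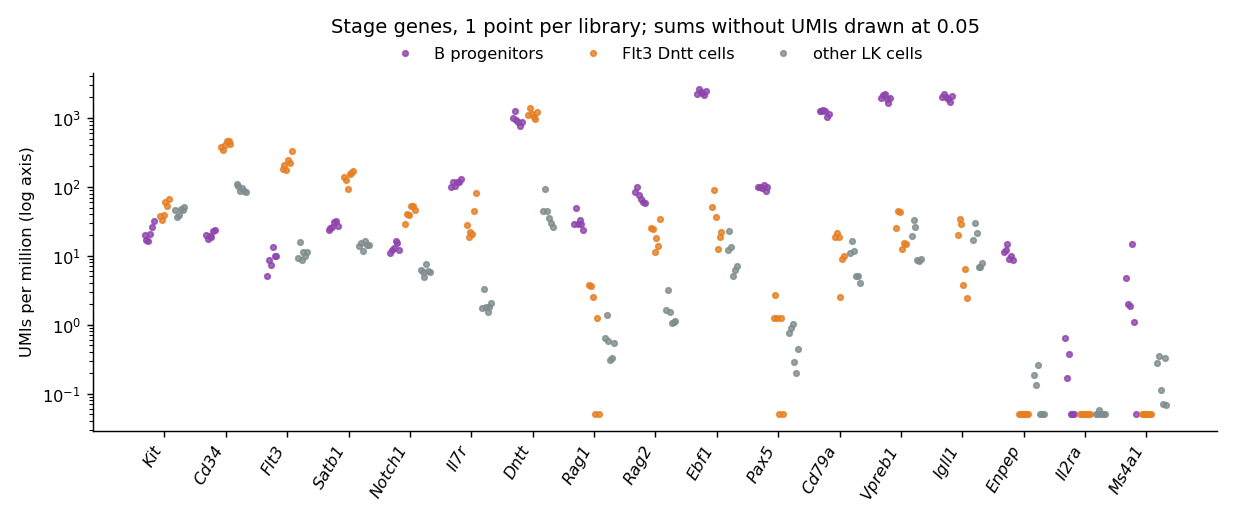
Level of 17 stage genes (CPM, log axis) summed over B progenitors, Flt3 Dntt cells and other LK cells, 1 point per library and kind of cell, with sums that held no UMI drawn at 0.05. Pax5 is near 100 CPM in B progenitors and near 1 CPM elsewhere, while Cd34 and Satb1 are highest in the Flt3 Dntt cells.

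The nearest other lymphoid cells in the sort were 605 cells outside the rule with at least 1 UMI of Flt3 and 1 of Dntt, called Flt3 Dntt cells here. They numbered 81 to 125 per library and had a median of 6864 UMIs. FLT3 receives a cytokine signal on multipotent and early lymphoid cells. Of 7655 genes tested, 3741 differed between B progenitors and these cells (48.9%, with 23.4% higher and 25.4% lower in B progenitors), again a description of selected cells. Dntt, used in choosing the second set, averaged 952 ± 175 CPM in B progenitors and 1132 ± 158 CPM in Flt3 Dntt cells.

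Most early lymphoid genes tested were lower in B progenitors than in Flt3 Dntt cells, and B lineage factors went both ways. Cd34, of stem and progenitor cells, averaged 20.3 ± 2.60 CPM in B progenitors and 413 ± 50.9 CPM in Flt3 Dntt cells (log2 fold change -4.41 ± 0.08). Satb1, a chromatin organiser of lymphoid progenitors, averaged 27.4 ± 3.14 CPM and 140 ± 27.2 CPM, and Notch1 13.3 ± 2.09 CPM and 43.4 ± 9.45 CPM. Of 13 early lymphoid genes tested, 9 were in the lower and 4 in the higher group, and those 4 were Il7r, Ly6d, Arpp21 and Cecr2. Of 17 B lineage factors tested, 9 were in the higher group, among them Pax5, Lef1 and Pou2af1, and 4 in the lower group, which were Ikzf1, Sox4, Spi1 and Cebpa. Of all genes tested against Flt3 Dntt cells, 23.4% were higher and 25.4% lower in B progenitors. Granulocyte genes, all lower than in other LK cells, were mostly higher than in Flt3 Dntt cells: of 11 tested, 8 were in the higher and 1 in the lower group. Of 10 erythroid genes tested, 4 were in the higher and 1 in the lower group. The part of free RNA and doublets in these levels was not tested. Survival genes were split: Bcl2 averaged 30.5 ± 7.82 CPM in B progenitors and 183 ± 26.3 CPM in Flt3 Dntt cells, while Bcl2l1, which encodes BCL-XL, averaged 31.2 ± 6.33 CPM and 8.56 ± 3.50 CPM.

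Among the 10 largest log2 fold changes over Flt3 Dntt cells were those of Gfra2 (8.96 ± 0.38), Bst1, Cplx2, Lef1, Pou2af1, Id3, Pax5, Gimap4 and Cecr2. The 10 most negative were those of Wfdc17 (-6.72 ± 0.09), Cd34, Cox6a2, Ccl4, Adgrl4, P2ry14, Runx2, Lat2, Bex6 and Ctla2a.

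B progenitors were rich in the RNA of dividing cells. The proliferation gene Mki67 averaged 237 ± 11.7 CPM in B progenitors, 78.2 ± 16.4 CPM in Flt3 Dntt cells and 98.5 ± 6.16 CPM in other LK cells. All 24 genes of the G2/M and mitosis list had a positive log2 fold change over other LK cells, with a median of 1.13, against -0.04 over all genes tested. Ccnd3, the D-type cyclin that pre-B cell expansion depends on, averaged 858 ± 59.3 CPM in B progenitors and 136 ± 7.83 CPM in other LK cells. Between genotypes the share of thinned B progenitors with an Mki67 UMI was 44.4%, 46.7% and 44.3% in Mettl3KO, against 51.7%, 41.7% and 47.0% in WT, and these ranges overlapped. None of the 24 G2/M and none of the 25 G1/S genes passed the edgeR test between genotypes, where 0.673% of all genes tested passed, so that lists of this size would hold few calls in any case. At an unadjusted p under 0.05 there were 3 and 1.

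The cells were not uniform. Within each library the 25% of B progenitors with the most G2/M RNA (upper cells) were set against the 25% with the least (lower cells), a cut through a continuous range described without a test. From 10 to 98 cells per library lay within 10% of the upper cut. Il7r averaged 181 ± 34.3 CPM in the upper cells and 82.2 ± 9.70 CPM in the lower cells, and Blnk 554 ± 51.0 CPM and 291 ± 57.6 CPM. Both were higher in the upper cells in 6 of 6 libraries. Myc averaged 34.7 ± 11.2 CPM in the upper and 113 ± 28.7 CPM in the lower cells, and Ltb, which encodes lymphotoxin beta, 15.2 ± 5.36 CPM and 76.1 ± 21.9 CPM, both lower in the upper cells in 6 of 6 libraries. The recombinase genes went opposite ways: Rag1 averaged 29.9 ± 13.4 CPM in the upper and 47.7 ± 15.2 CPM in the lower cells, lower in the upper cells in 5 of 6 libraries. Rag2 averaged 115 ± 34.5 CPM and 66.3 ± 13.8 CPM, higher in the upper cells in 5 of 6 libraries. Dntt was higher in the upper cells in 6 of 6 libraries, at 1297 ± 150 CPM and 906 ± 237 CPM. The rule genes were also all higher in the upper cells in 6 of 6 libraries, with Vpreb3 at 3040 ± 111 CPM and 1567 ± 246 CPM. Cd34, at 4.12 ± 3.14 CPM and 34.1 ± 9.93 CPM, and Cd74, at 67.5 ± 110 CPM and 620 ± 248 CPM, were lower in the upper cells in 6 of 6. The upper and lower cells thus differed in more than G2/M RNA, and the part of cell division in these contrasts was not tested.

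The targeted gene was low in all cells. Mettl3 (chromosome 14, minus strand) had 13.4, 15.8 and 14.4 CPM in Mettl3KO B progenitors, against 20.8, 26.1 and 14.2 CPM in WT B progenitors. The groups overlapped, and the log2 fold change of -0.48 ± 0.20 did not pass edgeR's quasi-likelihood test (adjusted p = 0.43). In the other LK cells the levels were 10.9, 12.3 and 12.9 CPM in Mettl3KO, against 19.4, 21.7 and 17.7 CPM in WT. The difference of the genotype effect between B progenitors and other LK cells was 0.34 ± 0.20 on the log2 scale and did not pass (edgeR adjusted p = 0.43). Which exons are deleted was not given in the sources used here, and UMIs from outside the deleted part do not check the knockout. The degree of deletion in B progenitors was therefore not measured.

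Few genes separated Mettl3KO from WT B progenitors. Of 9664 genes tested, 65 changed at an edgeR adjusted p under 0.05 (0.673%), with 21 higher (0.217%) and 44 lower (0.455%) in Mettl3KO. At an unadjusted p under 0.05 there were 950. Without the mixed cells 17 genes passed, 10 higher and 7 lower. Without WT 3, the library that stood apart, 26 passed, 13 higher and 13 lower, and without WT 2 only 5 passed.

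Among genes higher in Mettl3KO, Socs2, a feedback inhibitor of cytokine receptor signalling through JAK and STAT proteins, was the only one to pass in all 16 settings run. It had 127, 123 and 148 CPM in Mettl3KO B progenitors, against 73.6, 78.3 and 57.9 CPM in WT, with no overlap. The log2 fold change was 0.92 ± 0.12 (edgeR adjusted p = 0.00614). Of 14 tested genes of the interleukin 7 receptor signalling list, Socs2 alone passed, where 0.673% of all genes tested did. Nothing is read from 1 call. The median log2 fold change of the 14 was 0.35, against -0.0030 over all genes tested, with 11 above 0. At an unadjusted p under 0.05 there were 7 of the 14, against 950 of all 9664 genes. The summed level of the 14 overlapped between genotypes, at 1539, 1405 and 1600 CPM in Mettl3KO B progenitors, against 1595, 1480 and 1362 CPM in WT. Most of that sum came from Ccnd3.

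Interferon-inducible genes were among the higher ones. Isg15, a ubiquitin-like protein gene, had 38.5, 54.5 and 34.1 CPM in Mettl3KO, against 16.0, 13.1 and 18.6 CPM in WT (log2 fold change 1.41 ± 0.23, edgeR adjusted p = 0.0133). Gbp2, a guanylate-binding GTPase gene, had 21.2, 33.9 and 29.2 CPM in Mettl3KO, against 10.9, 10.9 and 9.83 CPM in WT. Neither gene overlapped between genotypes. The GTPase genes Tgtp2, Igtp and Irgm1, the peptide transporter gene Tap1 and the immunoproteasome gene Psmb9 also rose, with log2 fold changes of 2.64, 1.03, 1.24, 0.50 and 0.47. Isg15 no longer passed without WT 1 or without WT 2, and Gbp2 no longer passed without Mettl3KO 3 or without any 1 of the WT libraries. Igtp, Irgm1, Psmb9 and Tap1 did not pass without the mixed cells, where their log2 fold changes were 0.88, 1.20, 0.40 and 0.42. Irgm1 passed in 6 and Tap1 in 5 of the 16 settings.

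Within the interferon-stimulated list, 22 of 28 genes were tested and 1, Isg15, passed, where 0.673% of all genes tested did, and nothing is read from 1 call. The median log2 fold change of the 22 was 0.37, against -0.0030 over all genes tested, with 18 above 0. Usp18, which curbs interferon receptor signalling, had 14.1, 20.4 and 12.9 CPM in Mettl3KO, against 4.72, 5.44 and 9.83 CPM in WT, and missed the threshold (edgeR adjusted p = 0.087). The list's summed level was 762, 934 and 742 CPM in Mettl3KO B progenitors, against 562, 606 and 667 CPM in WT. It was also higher in the other LK cells of Mettl3KO, at 687, 720 and 669 CPM, against 480, 526 and 495 CPM in WT. Whether pIpC, Mx1-Cre or Mettl3 sets this level was not tested.

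Promoters of 4 raised genes are shown because these genes rose together and their promoters hold the letters GAAANNGAAA, the core of the interferon-stimulated response element, on either strand. They are RefSeq promoters (GRCm38.p6) of Isg15 at chr4:156200769-156201068 (minus strand), Irgm1 at chr11:48871371-48871670 (minus strand), Gbp2 at chr3:142620413-142620712 (plus strand) and Tgtp2 at chr11:49064163-49064462 (minus strand), with that motif in capitals and, in Tgtp2, also TTCNNNGAA, the letters of a gamma-activated site.
Isg15: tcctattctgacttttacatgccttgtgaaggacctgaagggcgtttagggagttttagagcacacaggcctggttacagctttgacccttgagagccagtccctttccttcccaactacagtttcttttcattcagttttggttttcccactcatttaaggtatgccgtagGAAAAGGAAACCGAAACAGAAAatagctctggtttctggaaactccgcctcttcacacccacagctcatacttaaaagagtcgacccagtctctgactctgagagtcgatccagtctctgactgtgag
Irgm1: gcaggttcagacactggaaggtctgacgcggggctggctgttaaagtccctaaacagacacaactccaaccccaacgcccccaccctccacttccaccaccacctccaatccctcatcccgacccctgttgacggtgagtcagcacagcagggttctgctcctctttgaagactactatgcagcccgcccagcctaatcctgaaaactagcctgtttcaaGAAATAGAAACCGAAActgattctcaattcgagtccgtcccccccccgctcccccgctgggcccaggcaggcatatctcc
Gbp2: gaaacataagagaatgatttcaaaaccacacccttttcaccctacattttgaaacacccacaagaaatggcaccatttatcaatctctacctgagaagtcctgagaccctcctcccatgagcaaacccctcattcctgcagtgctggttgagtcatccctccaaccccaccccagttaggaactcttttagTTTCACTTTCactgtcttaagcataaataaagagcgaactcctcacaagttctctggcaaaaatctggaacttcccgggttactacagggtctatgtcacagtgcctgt
Tgtp2: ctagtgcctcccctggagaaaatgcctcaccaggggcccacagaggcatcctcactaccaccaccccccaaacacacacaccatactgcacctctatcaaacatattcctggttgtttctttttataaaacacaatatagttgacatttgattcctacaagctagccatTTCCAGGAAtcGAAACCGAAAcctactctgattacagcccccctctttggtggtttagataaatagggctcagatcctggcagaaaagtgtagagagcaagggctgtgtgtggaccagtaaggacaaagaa
Of the 21 raised genes, 14 had a RefSeq promoter in the table. GAAANNGAAA was in the promoters of 5 of them, the 4 above and Igtp, and in 3.44% of all 32851 promoters. TTCNNNGAA was in those of 4 (Igtp, Tgtp2, Serpina3f and Serpina3g) and in 8.30% of all promoters, and TTCNNNNGAA in none of the 14 and in 6.95% of all promoters.

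The other leading higher genes had varied roles. Ly6a, which encodes SCA-1, had 40.6, 64.6 and 68.6 CPM in Mettl3KO, against 15.6, 26.1 and 10.9 CPM in WT (log2 fold change 1.79 ± 0.27, edgeR adjusted p = 0.00808). It lost its call when the rule was loosened to 10 UMIs per 10000 (log2 fold change 0.60). Gimap4, a GTPase gene of lymphocytes, had 64.7, 85.7 and 102 CPM in Mettl3KO, against 34.0, 40.3 and 38.2 CPM in WT. Ifi27l2a averaged 251 ± 36.3 CPM in Mettl3KO and 151 ± 16.2 CPM in WT. Mzb1, a chaperone of immunoglobulin assembly, averaged 929 ± 48.3 CPM and 641 ± 83.8 CPM. Slamf7, Lxn and Lgals1 complete the 10 leading higher genes with Tap1, Psmb9 and those above, at log2 fold changes of 0.62, 0.58 and 0.45. Without the mixed cells Mzb1, Slamf7, Lxn and Lgals1 did not pass, at log2 fold changes of 0.43, 0.53, 0.47 and 0.48. Gimap4 and Ifi27l2a passed in 15 of the 16 settings and did not without WT 2 (1.27 and 0.67). Lxn passed in 13, Mzb1 in 11, Lgals1 in 9 and Slamf7 in 7 settings.

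**Figure D3:**
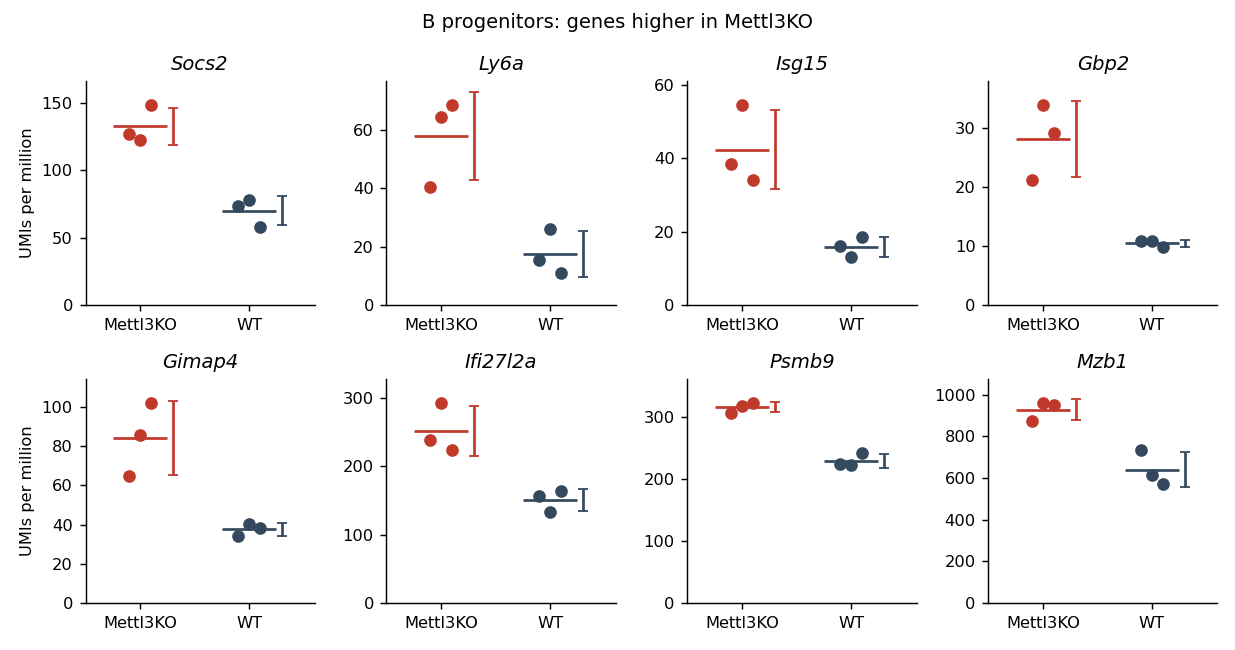
Levels of 8 genes that rose in Mettl3KO B progenitors (CPM, linear axes from 0). Points are libraries, horizontal lines are means and bars beside them are SD (n = 3 each). In all 8 panels the Mettl3KO points lie above the WT points. This was a condition of choice for Socs2, Ly6a, Gimap4, Ifi27l2a, Psmb9 and Mzb1.

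Genes of granulocytes and red cell precursors, and the platelet gene Pf4, were among the lower ones. The 10 leading ones were Pf4, Car1, Fcnb, Pglyrp1, Elane, Hp, Clec12a, Mpo, Ly6c2 and Ctsg. Pf4, a platelet chemokine gene, had 6.93, 2.16 and 11.4 CPM in Mettl3KO, against 100.5, 51.1 and 134 CPM in WT (log2 fold change -3.73 ± 0.36, edgeR adjusted p = 0.000479), and passed in all 16 settings. The rule for mixed cells used no platelet gene, so leaving them out need not remove cells mixed with platelet precursors. Of 3 megakaryocyte genes tested Pf4 alone passed, and nothing is read from 1 call. Elane had 552, 503 and 616 CPM in Mettl3KO, against 1158, 2559 and 1613 CPM in WT. Of the 44 lower genes, 40 were also lower in B progenitors than in other LK cells, against 3 of the 21 higher genes, while 33.2% of all genes tested were lower in B progenitors. Of 11 granulocyte genes tested 6 fell, and of 12 erythroid genes 5 fell, where 0.455% of all genes tested fell. Without the mixed cells, 5 of the 44 lower and 9 of the 21 higher genes still passed, and Elane did not (log2 fold change -1.07, edgeR adjusted p = 0.092). Elane, Prtn3, Ctsg, Mpo, Car1 and Klf1 helped choose the mixed cells, so their values without these cells were partly set by that choice. The part of free RNA in these falls was not tested.

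**Figure D4:**
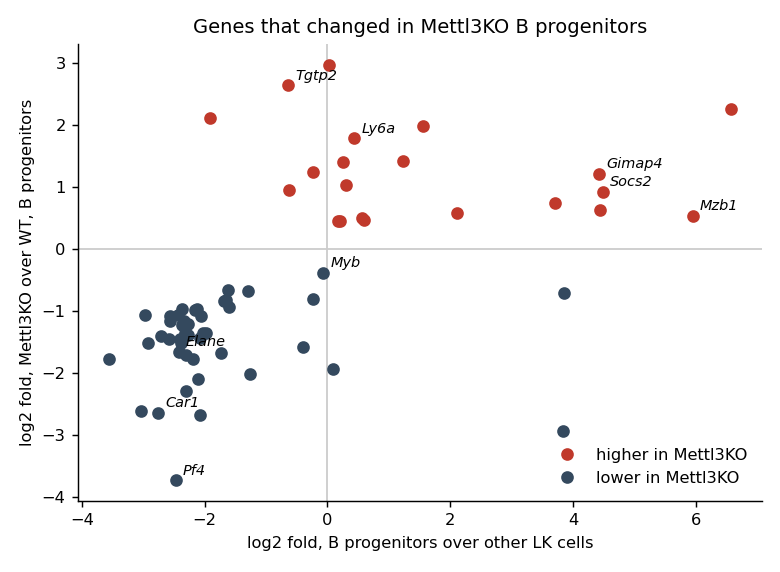
Genes that changed between Mettl3KO and WT B progenitors, by their log2 fold change over other LK cells (x axis) and between genotypes (y axis), 1 point per gene. Lower genes cluster at the left, where B progenitors have less RNA of the gene than other LK cells, as Elane and Pf4 do.

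Genes of the B cell programme are given by level, since at 0.673% of all genes called a list of this size would hold few calls in any case. Pax5 had 97.9, 99.8 and 94.7 CPM in Mettl3KO, against 105, 85.9 and 99.4 CPM in WT, and Il7r had 101, 117 and 102 CPM, against 119, 119 and 130 CPM. Of 18 B lineage factors tested, 1 changed: Myb, needed for pro-B cell survival, averaged 136 ± 4.77 CPM in Mettl3KO and 179 ± 5.02 CPM in WT (log2 fold change -0.39 ± 0.08, edgeR adjusted p = 0.0317). Myb did not pass without the mixed cells (log2 fold change -0.27) or in any fit that left out a library (-0.41 to -0.37). None of 12 recombination genes passed. Dntt averaged 1069 ± 180 CPM in Mettl3KO and 836 ± 61.3 CPM in WT (log2 fold change 0.36 ± 0.11, edgeR adjusted p = 0.23), and Rag2 had 85.1, 100.1 and 75.9 CPM, against 67.5, 60.9 and 57.9 CPM (0.47 ± 0.12, edgeR adjusted p = 0.14). Of 14 early lymphoid genes tested, 2 had a log2 fold change above 0, with a median of -0.22, against -0.0030 over all genes tested. Only Ly6a passed, and it was higher in Mettl3KO, while 6 had an unadjusted p under 0.05. Their summed level overlapped, at 778, 892 and 786 CPM in Mettl3KO, against 1056, 839 and 950 CPM in WT. Ly6d, of B-biased lymphoid progenitors, had 141, 164 and 132 CPM in Mettl3KO, against 302, 173 and 199 CPM in WT. Its groups did not overlap, it missed the threshold (log2 fold change -0.66 ± 0.15, edgeR adjusted p = 0.067), and it passed without the mixed cells (adjusted p = 0.024). A p that misses the threshold does not show that levels were equal.

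The genotype effect was also compared directly between B progenitors and other LK cells. It differed for 383 of 12471 genes (3.07%), with 217 more positive (1.74%) and 166 more negative (1.33%) in B progenitors, a split that turned to 117 and 173 with DESeq2's size factors. Socs2 rose in both kinds of cell, with a smaller fold change in B progenitors. In other LK cells it had 18.5, 11.3 and 10.9 CPM in Mettl3KO, against 1.62, 1.03 and 1.14 CPM in WT (difference of log2 effects -2.29 ± 0.24, edgeR adjusted p = 1.02e-06). The fold change in other LK cells starts from this low WT level, and in CPM the rise was larger in B progenitors. Cdkn1a, which encodes the cell cycle inhibitor p21, had 70.0, 69.9 and 70.9 CPM in Mettl3KO B progenitors, against 85.9, 74.0 and 92.8 CPM in WT. In other LK cells it had 25.5, 24.5 and 20.04 CPM in Mettl3KO, against 8.94, 6.22 and 7.76 CPM in WT, and the effects differed by -1.68 ± 0.14 (edgeR adjusted p = 1.16e-08). Pim1, Ltb and Cd74 likewise had more negative effects in B progenitors, by -1.002, -1.60 and -1.22. Cd74 did not pass with at least 3 of the 5 genes required or by DESeq2.

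The level in other LK cells is also given relative to B progenitors. As a percent of their level in B progenitors of the same library, the summed rule genes in other LK cells stood at 0.768%, 1.23% and 0.913% in Mettl3KO, against 0.355%, 0.393% and 0.363% in WT. Pax5, whose effects differed by -1.43 ± 0.29, stood at 0.783%, 0.890% and 1.09% in Mettl3KO, against 0.273%, 0.233% and 0.440% in WT. Socs2 stood at 14.5%, 9.24% and 7.33% in Mettl3KO, against 2.198%, 1.31% and 1.97% in WT, and Cdkn1a at 28.3% to 36.5% in Mettl3KO, against 8.36% to 10.4% in WT. The part of RNA from B progenitors in the levels of other LK cells was not tested.

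**Figure D5:**
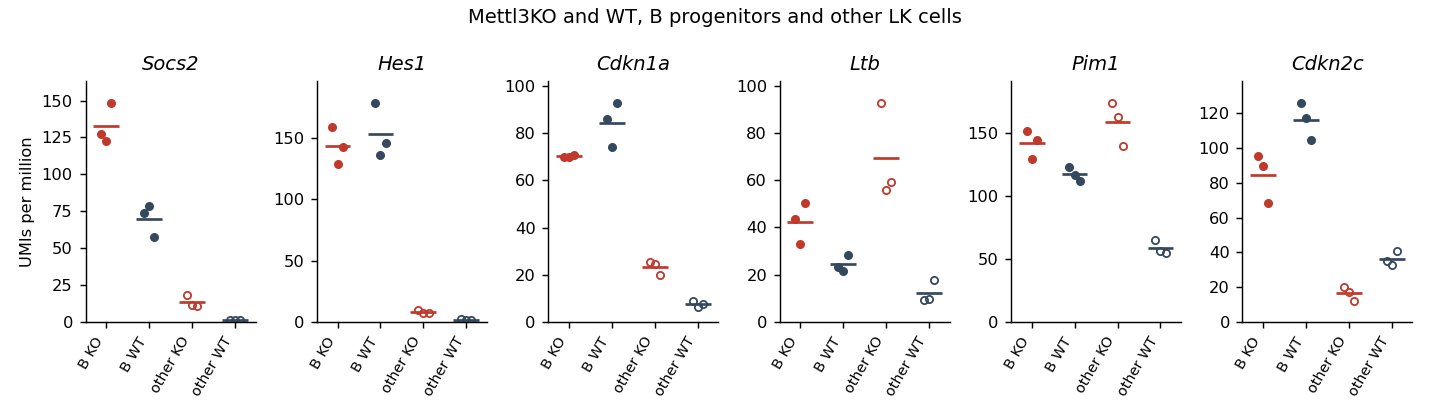
Levels of 6 genes (CPM, linear axes from 0) in B progenitors (filled) and other LK cells (open) of Mettl3KO (KO) and WT, 1 point per library with the mean as a line. Cdkn1a is near 70 CPM in Mettl3KO and 74.0 to 92.8 CPM in WT B progenitors, while in other LK cells it is higher in Mettl3KO.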

How the data were processed

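Single-cell libraries of LK cells (3 Mettl3KO, 3 WT) were used, and the bulk table was not used here. The deposited values were raw UMI counts per gene and cell, which the authors had not normalized. The submitters' processing notes name Cell Ranger 2.2, while those sources name neither the annotation nor the filter on cells. Counts were summed per library over B progenitors, over other LK cells and over Flt3 Dntt cells. Levels are UMIs per 1000000 of each sum. Sums were tested in R 4.3.3 with edgeR 4.0.16 (glmQLFit and glmQLFTest, TMM, filterByExpr, Benjamini-Hochberg over all genes tested), with genotype as the only term between genotypes and the library as a block between cells of the same library. DESeq2 1.42.0 was an alternative. The 5 rule genes were left out of all tests, and Flt3 and Dntt of the test against Flt3 Dntt cells. The code was tested on simulated data.

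Shares were compared by exact permutation over libraries (scipy 1.17.1). Intervals and floors cover counting error only. Named genes were the rule genes, Mettl3, the 10 largest and 10 most negative log2 fold changes at adjusted p under 0.05 with no overlap and a mean of at least 50 CPM in the higher group, and up to 4 genes per list with the smallest p. Hes1, Gimap1, Cdkn2c, Usp18 and raised genes under 50 CPM were named after their values were seen. The members and lists were chosen with earlier results of these data known. Some genes that meet the rule are not reported here.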

Additional observations from a re-analysis of the deposited data

Results flagged for a closer look

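The effect of the Mettl3KO genotype differed between B progenitors and other LK cells for 383 of 12471 genes, by a direct test of the difference in edgeR. The named genes among them are given with the difference of the log2 effects. It was more negative in B progenitors for Pf4 (-2.33), Socs2 (-2.29), Hes1 (-2.25), Gimap1 (-1.87), Cdkn1a (-1.68), Ltb (-1.60), Cd74 (-1.22) and Pim1 (-1.002). It was more positive for Cdkn2c (0.81), which encodes the cell cycle inhibitor p18, and for Lxn (0.64). Of the 383 genes, 217 were more positive (1.74% of all genes tested) and 166 more negative, so the named genes do not mirror the split. In the G2/M and mitosis list 8 of 24 genes passed, and in the G1/S list 5 of 25, all more positive. The median differences of these lists were 0.29 and 0.27, against 0.044 over all genes tested. Hes1, a target of Notch signalling, had 159, 129 and 142 CPM in Mettl3KO B progenitors, against 179, 136 and 146 CPM in WT. In other LK cells it had 9.72, 6.93 and 7.50 CPM in Mettl3KO, against 2.02, 1.25 and 1.58 CPM in WT. Gimap1 had 192, 189 and 197 CPM in Mettl3KO B progenitors, against 166, 143 and 145 CPM in WT, and in other LK cells 136, 79.7 and 93.5 CPM, against 19.4, 20.7 and 18.9 CPM. Other LK cells are a mix of types whose make-up was not held equal between genotypes, and its part in these differences was not tested.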

How the results depend on the processing

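The share of B progenitors was higher in Mettl3KO in every alternative run, by 18.6 to 19.9 percentage points over other thresholds, cell filters and thinning, and by 16.0 to 23.1 points when 1 library was left out. The count of genes that changed in B progenitors between Mettl3KO and WT moved the most, from the 65 reported to 103 at a threshold of 10, 20 at a threshold of 40, 17 without mixed cells and 270 with no filter on low counts, and it lay between 5 (without WT 2) and 90 (without WT 1) when 1 library was left out. The count of genes whose genotype effect differed between B progenitors and other LK cells was 654 with no filter and 178 by DESeq2 (65 more positive, 113 more negative), against 383 reported, and lay between 195 (without WT 3) and 414 (without WT 1), with 209 without WT 2. The counts against other LK cells and against Flt3 Dntt cells stayed within 1.5 times in every alternative run. Prtn3 turned to 0.052 on the log2 scale without mixed cells (edgeR adjusted p = 0.972), from which no direction is read. This gene helped choose the mixed cells. Of 58 named gene values, 24 passed in every alternative run. The causes were not tested.

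No pairing by replicate number was seen: deviations of same-numbered Mettl3KO and WT libraries correlated at 0.0134, -0.0565 and -0.104 across genes. With 3 libraries per genotype, such correlations cannot show whether the libraries were paired. With the replicate block 85 genes changed in B progenitors (22 higher, 63 lower), and the paired exact test of the share gave p = 0.25, the smallest it can give. B progenitors of WT 2 numbered 139, the fewest of any library.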
